A study of Mus musculus with 16 samples.

Results

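Wounds of diabetic mice treated with estrogen were compared with wounds of non-diabetic WT mice, to describe which genes still separated the treated wounds from WT. The comparison used the 2 arrays of db/db + estrogen and the 2 arrays of WT labelled day 14, which are 4 of the 16 arrays of the series. The db/db + estrogen mice were 10-week-old females of the diabetic strain C57BLKS/J Iar-+Lepr db/+Lepr db, which carries a mutated leptin receptor, and their wounds received estradiol benzoate in sesame oil every day at 0.75 μg per g of body weight. The WT mice were 10- to 12-week-old C57BL/6J females, wounded and left without treatment. Untreated db/db wounds and db/db wounds given sesame oil alone (db/db + vehicle) served as further reference values. Each wound with its rim of intact skin was bisected, and 1 part was frozen for RNA, which the paper describes as taken from a whole-wound homogenate. Each array holds 1 of 2 biological replicates of its group. Strain, diabetes and treatment all differed between the compared groups, so their parts cannot be told apart.

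Db/db mice lack a working leptin receptor, overeat, become obese and diabetic, and close skin wounds slowly. Estrogen acts through nuclear receptors that bind DNA and regulate target genes, among them the progesterone receptor gene. In a healing skin wound, keratinocytes cover the gap, macrophages clear debris and release growth factors, and fibroblasts lay down collagen.

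Levels are given as log2 of the processed signal relative to the 75th percentile of the same array, so that 0 is the level of that percentile and a difference of 1 is a 2-fold change. A difference is always db/db + estrogen minus WT unless another group is named. A probe was called when the unadjusted p of limma was below 0.05 and the fold was above 2, the study's thresholds. It was called after adjustment when its Benjamini-Hochberg adjusted p was below 0.05 and the fold above 2. For a probe that was well above background in one group only, the ratio is a lower bound, the mean of the brighter group against the dimmest signal that was still measurable in the other, and is written as "at least".

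Several array features bear on the values. The WT replicate 2 array was dim, with a 75th percentile signal of 1091 against 2034 to 2383 on the other 3 arrays. Both WT arrays and db/db + estrogen replicate 2 lay on 1 slide, and db/db + estrogen replicate 1 lay on another. A comparison within a slide is thus the one made without that replicate. Both untreated db/db arrays labelled day 14 lay on that other slide, so for them the difference from WT and slide cannot be told apart. Of db/db + vehicle, replicate 1 lay on that other slide and replicate 2 with the WT arrays. The label day 14 itself is uncertain. For 20 of 20 db/db to WT ratios printed for day 7, the value lay within 1% of the ratio on the arrays labelled day 14, and for 0 of 20 on the arrays labelled day 7. The reverse held for 20 of 20 ratios printed for day 14. The arrays are therefore named by label only. The db/db + vehicle arrays carried estrogen target genes at high levels, as described for each gene, although their label names oil alone.

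Of 42 marker genes for the cell types of a skin wound and for foreign tissue, 41 had a named probe and 37 were well above background on all 4 arrays. Basal keratinocyte keratin Krt5 stood at 7.42 and 7.11 in db/db + estrogen and at 7.28 and 7.47 in WT, and the fibroblast collagen Col1a2 at 8.06 and 7.94 against 7.90 and 8.76. The tissue was thus skin with its connective tissue in both groups. Suprabasal keratin Krt10 differed between the replicates of each group, at 6.52 and 3.13 in db/db + estrogen and at 6.45 and 3.56 in WT. The creatine kinase of skeletal muscle, Ckm, differed likewise, at −0.23 and 4.80 against 2.60 and 3.82. Of the 42 markers 5 were called, beside 13.4% of all probes tested. The macrophage genes Adgre1, Csf1r and Lyz2 were higher in the treated wounds. Gfap and Snap25, set as brain markers that a skin wound should lack, were lower, Snap25 before adjustment only. Of the foreign markers, Snap25, the liver gene Alb and the pancreas gene Ins2 were well above background on all 4 arrays. Gfap was so on the WT arrays only, and the pancreas gene Prss2 on none.

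Of 30272 probes tested, 4064 were called, which is 13.4%. Of these, 767 were higher in db/db + estrogen (2.53% of those tested) and 3297 lower (10.9%). Both shares are the reference for every list count below. They cover all tested probes, named or not, while the lists hold named genes, each by its probe of highest mean level. Adjusted lower probes had a symbol less often than all tested probes, and adjusted higher probes more often. Among named probes the adjusted lower share is therefore smaller, and the adjusted higher share larger, than over all probes. A reference of named genes alone was not computed. After adjustment 2697 were called (8.91%), 521 higher (1.72%) and 2176 lower (7.19%). The median difference over all probes was −0.10. Within groups, 11.7% of probes differed by more than 2-fold between the WT replicates and 11.7% between the db/db + estrogen replicates, against 16.1% between the group means. The called probes of the 2 directions were not of one kind. Among the adjusted higher probes, 83.5% had a gene symbol, and the median level in the brighter group was −0.33. Among the adjusted lower probes, 48.4% had a symbol, and the median level in the brighter group was −3.37. Of them, 461 (21.2%) were well above background on both WT arrays and on neither treated array. Of all probes tested, 73.9% had a symbol, and 4.38% were well above background in 1 group only, 1256 in WT and 69 in db/db + estrogen. The WT arrays had 79.0% and 77.8% of probes well above background and the treated arrays 73.3% and 72.6%. Whether this array-wide difference took part in the dim lower calls was not tested. In these whole-wound samples, fewer cells of a type and less RNA per cell cannot be told apart.

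The counts depended on single arrays and on the scaling. Without the dim WT replicate 2, 2808 probes were called and 924 after adjustment, and without WT replicate 1, 6045 and 4502. Without db/db + estrogen replicate 2 the counts were 4115 and 1557, and without replicate 1, within 1 slide, 4851 and 2164. A fit on the 4 arrays alone, which has few degrees of freedom, called 3648 and 78. Calls higher in the treated wounds made up 18.9% of all calls, and 35.6% after quantile normalization, which moved the median of all probes to 0.04.

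**Figure D1:**
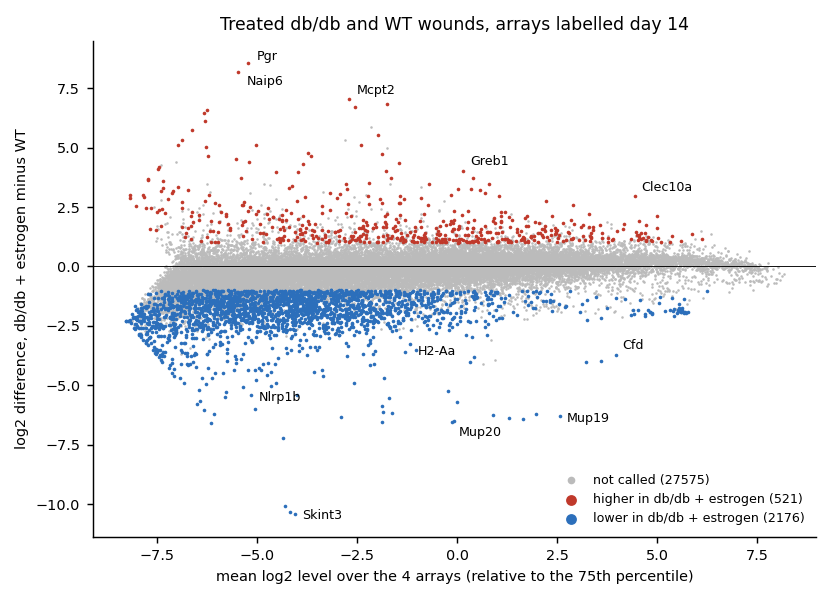
Difference between db/db + estrogen and WT (log2, vertical axis) against the mean level of the 4 arrays (log2 relative to the 75th percentile, horizontal axis) for the 30272 probes tested on the arrays labelled day 14. Red points are the 521 probes higher and blue points the 2176 probes lower after adjustment, grey points the remaining 27575. The lower probes are spread towards the dim side of the plot.

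The largest family-wide difference was in the major urinary proteins (Mups), small lipocalins that carry pheromones and lipids and are made mainly in liver and glands. All 11 Mup genes with a tested probe were lower in db/db + estrogen than in WT after adjustment, with a median difference of −6.22 (all probes −0.10). Mup20 stood at −3.44 and −3.35 in db/db + estrogen and at 2.94 and 3.32 in WT. The WT arrays were thus far above both treated arrays, by 6.52 ± 0.72 (SE, limma adjusted p = 0.000696). Mup19 read −0.61 and −0.57 against 5.56 and 5.88. Mup21 had the smallest difference, −1.73 ± 0.35, with −4.73 and −4.74 against −3.27 and −2.73. Mup6 was well above background in WT only and was at least 5.92-fold lower. The family was as low in untreated db/db and db/db + vehicle, whose medians against the same WT arrays were −6.62 and −6.58. The liver marker Alb was well above background on all 4 arrays, at −5.78 and −5.31 in db/db + estrogen and −5.49 and −5.01 in WT, and was not called (−0.30 ± 1.52). All 11 genes remained called when any 1 of the 4 arrays was left out.

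The Mup genes lie side by side on chromosome 4 and are near-identical copies, so a probe for one may also read others, and the 11 values are not 11 separate measurements. The stretch around the start site, shown because the family moved as a block, carries the likeness. Of the 11 tested genes, 9 were in the RefSeq promoter table (GRCm38.p6), and all 9 held the letters TATATAA, a core promoter motif, on the gene strand, as did 2.2% of all 32851 promoters. The 45 bases from 12 before that motif to 26 after it were identical in Mup17, Mup2, Mup9 and Mup19, and shared 44 bases with Mup17 in Mup18, 43 in Mup3 and in Mup6, 42 in Mup21 and 41 in Mup4. Capitals mark TATATAA, and a match is a description of letters only. The stretches are Mup17 at chr4:61595825-61595869, Mup18 at chr4:61674090-61674134, Mup3 at chr4:62087296-62087340, Mup21 at chr4:62150817-62150861 and Mup4 at chr4:59960664-59960708, all on the minus strand, and Mup6 at chr4:60003440-60003484 on the plus strand.
Mup17: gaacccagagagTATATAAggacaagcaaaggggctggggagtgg
Mup18: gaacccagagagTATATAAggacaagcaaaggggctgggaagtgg
Mup3: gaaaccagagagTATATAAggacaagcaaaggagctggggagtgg
Mup6: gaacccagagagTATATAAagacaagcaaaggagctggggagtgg
Mup21: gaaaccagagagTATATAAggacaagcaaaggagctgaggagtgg
Mup4: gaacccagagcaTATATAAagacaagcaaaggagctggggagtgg
Mup21, with the smallest difference, shares more of these bases with Mup17 than Mup4 does, whose difference of −6.23 was near the median of the family.

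The Skint genes, which encode butyrophilin-like membrane proteins of keratinocytes and are named for the selection and upkeep of intraepithelial T cells, were split. Of 10 tested, 6 were called lower and 5 of these after adjustment. Skint3 read −9.19 and −9.35 in db/db + estrogen, at background, and 2.37 and −0.08 in WT, a ratio of at least 314-fold (limma adjusted p = 4.66e-05). Skint4 (at least 84.5-fold), Skint11 (at least 14.3-fold) and Skint8 (−4.37 ± 0.61) followed, and Skint1 was lower by 2.87 and, before adjustment only, Skint6 by 2.07. Skint9, Skint10, Skint5 and Skint7 were not called, with differences of −0.89, −0.50, −0.42 and 0.50. The list's median was −2.47, and −3.02 in untreated db/db. Members of this family are also close copies.

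Several single genes were high in WT and low or not detected in the treated wounds. 5830417I10Rik read −9.32 and −9.35 in db/db + estrogen, not above background, and 0.62 and 0.84 in WT, at least 235-fold lower (limma adjusted p = 2.42e-06). AA388235 read −9.44 and −9.34 against −3.46 and −3.78, at least 11.6-fold lower. Klrb1b, an inhibitory receptor of natural killer cells, was at least 11.9-fold lower and Tceanc2, a gene with a transcription elongation factor domain, at least 12.9-fold lower. For these 4 genes the untreated db/db and db/db + vehicle arrays lay at or below −6.30. Nlrp1b, an inflammasome sensor, read −6.92 and −8.80 in db/db + estrogen and −3.02 and −1.85 in WT, lower by 5.43 ± 0.76 (adjusted p = 0.00211 with limma). Tmc7, a transmembrane channel-like gene, was lower by 4.42 ± 0.27, with −5.57 and −6.01 against −1.40 and −1.33. Both groups were tight and wide apart for Tmc7, and the other db/db arrays lay between −6.18 and −5.22. Kera, which encodes the matrix proteoglycan keratocan, was at least 13.4-fold lower, and Cyp2e1, a cytochrome of alcohol and ketone metabolism, was lower by 5.26 ± 1.07. Cyp2e1 differed between the treated replicates, at −4.31 and −1.42, and stood at 2.52 and 2.26 in WT.

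The reverse pattern, high in every db/db group and low in WT, was seen for another set. Mcpt2, a chymase-like protease of mucosal mast cells, read 0.76 and 0.88 in db/db + estrogen and −6.02 and −6.40 in WT, higher by 7.03 ± 0.68 (limma adjusted p = 0.000355). It stood at 1.84 and 1.88 in untreated db/db and at 1.45 and 1.46 in db/db + vehicle. No other of the 15 mast cell genes tested was called, and the list's median was −0.35. Single WT arrays moved this list, with 6 genes called higher and a median of 0.42 without WT replicate 1, and 4 called lower and a median of −0.78 without WT replicate 2. Ctsg, the protease cathepsin G of mast cells and neutrophils, was higher by 3.52 ± 0.45. Naip6, a sensor of bacterial flagellin in the same gene cluster family as Naip1, read −1.44 and −1.37 against −9.91 and −9.22, at least 62.5-fold higher, and Naip1 was at least 3.99-fold higher. With Nlrp1b they were the 3 genes called of the 14 tested on the inflammasome list. Xaf1, an interferon-induced partner of an inhibitor of apoptosis, read 1.21 and 2.13 against −5.26 and −5.09, higher by 6.84 ± 0.30 (limma adjusted p = 2.42e-06). Its other tested probe had the opposite sign and was not called, so the 2 probes of this gene disagree. Syt10, a synaptic vesicle calcium sensor, was higher by 6.71 ± 1.03, with −0.74 and 2.34 against −6.30 and −5.52. 6330403K07Rik was higher by 5.53 ± 0.31. Of 211 genes with a probe that was well above background in one group only and called after adjustment, 67 had another tested probe. For 26 of those 67 another probe was called in the same direction, and for 38 all other probes differed by less than 2-fold. Whether sequence differences between the strains under a probe took part was not tested.

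Pgr and Greb1, genes of the estrogen response, showed a second pattern, high with estrogen and with oil but not in untreated db/db. Pgr, the progesterone receptor, read −1.31 and −0.63 in db/db + estrogen and −9.84 and −9.19 in WT, at least 84.6-fold higher (limma adjusted p = 2.08e-06). It read −9.66 and −9.14 in untreated db/db and −2.45 and −1.53 in db/db + vehicle, so the oil-treated wounds lay close to the estrogen-treated ones and the untreated ones lay with WT. Greb1, a cofactor of the estrogen receptor, read 2.01 and 2.33 in db/db + estrogen and −1.85 and −1.87 in WT, higher by 4.03 ± 0.52 (limma adjusted p = 0.00151). Untreated db/db stood lower than WT, at −4.66 and −3.86, and db/db + vehicle at 0.50 and 1.87. Ramp3, a receptor-activity-modifying protein and known estrogen target, was called before adjustment only, by 1.22 (limma adjusted p = 0.0804). It was not clearly raised with oil, at −0.87 and −0.46, against −1.24 and −0.885 in untreated db/db and −0.98 and −1.43 in WT. Without WT replicate 2 its difference was 0.99 and without db/db + estrogen replicate 2 it was 1.00, and the call was lost. The other 15 of 18 genes on the estrogen list were not called, and the list's median was 0.09. Esr1, the receptor itself, differed by 0.10 ± 0.36.

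Other leading genes shared the pattern. Ptpn5, a tyrosine phosphatase known from neurons, read 0.63 and 0.80 against −3.51 and −3.77 in WT, higher by 4.36 ± 0.35 (limma adjusted p = 0.000113). Its db/db arrays stood at −4.73 and −4.26 without treatment and at −0.34 and 0.53 with oil. Nrk, a kinase of the germinal center kinase family, was higher by 4.33 ± 0.69, and Dbh, which makes noradrenaline from dopamine, by 4.78 ± 0.77. Dbh spread widely within groups, from −2.06 to −0.64 in db/db + estrogen and from −6.75 to −5.51 in WT, with no overlap. Adamts19, a secreted metalloprotease, was at least 30.2-fold higher, Uts2, the vasoactive peptide urotensin 2, at least 19.4-fold and 4933402J15Rik at least 12.2-fold. Under the label day 7, 4933402J15Rik did not keep the pattern, with a mean of −9.2 with estrogen, −8.5 in WT and −6.6 with oil. On the db/db + vehicle arrays Uts2 read −6.98 and −3.19, a wide spread. Ngfr, the low-affinity nerve growth factor receptor, read 2.50 and 2.55 against 0.26 and −2.14, higher by 3.46 ± 0.77 (limma adjusted p = 0.0176), with 0.48 and 1.63 in db/db + vehicle and −2.36 and −2.52 in untreated db/db. Of 11 genes set apart by this pattern or by the kallikrein pattern, 10 were in the promoter table, and 0 held the full palindromic estrogen response element on either strand, as 0.07% of all promoters did. This says only that the motif's letters are not within these windows.

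**Figure D2:**
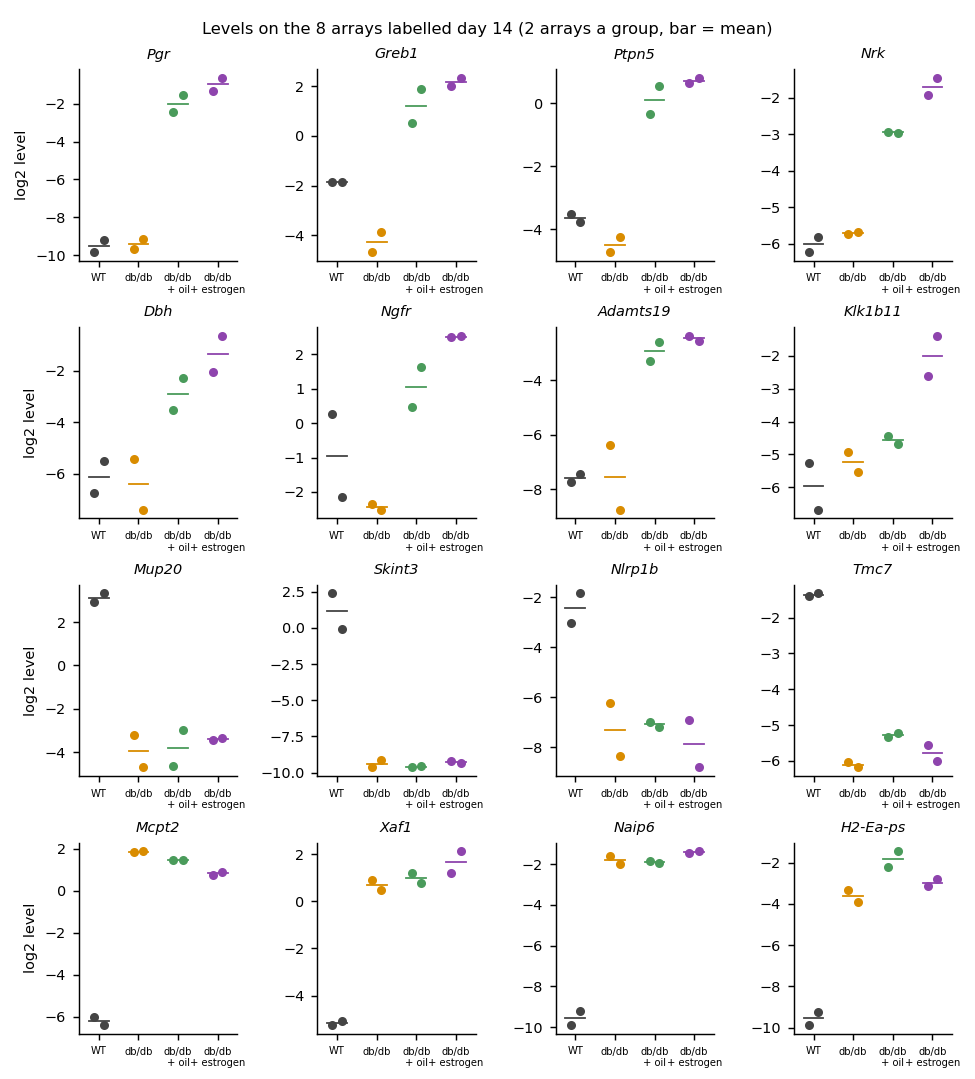
Levels (log2 relative to the 75th percentile, vertical axis) of 16 genes on the 8 arrays labelled day 14, for WT, db/db, db/db + oil (vehicle) and db/db + estrogen (horizontal axis). Dots are single arrays and bars are group means. Pgr, Greb1 and Ptpn5 are high with estrogen and with oil, Klk1b11 with estrogen, Mup20 and Skint3 in WT, and Mcpt2 and Naip6 in all db/db groups.

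Tissue kallikreins of the Klk1 family, serine proteases that release kinins or process growth factors, were in part higher in the estrogen-treated wounds. Of 12 tested, 8 were called higher, 6 after adjustment, and 0 lower. The list's median was 1.21, against 0.02 in untreated db/db and 0.14 in db/db + vehicle, each against the same WT arrays. Klk1b11 read −2.63 and −1.39 in db/db + estrogen and −5.26 and −6.68 in WT, higher by 3.96 ± 0.78 (limma adjusted p = 0.0102). Here the oil-treated arrays, at −4.44 and −4.67, lay near the untreated ones, at −4.91 and −5.54. Under the label day 7 they did not, with a Klk1b11 mean of −3.58 with oil, −6.41 in untreated db/db, −6.99 in WT and −0.35 with estrogen. Klk1b27 was at least 4.71-fold higher, with −5.08 and −5.20 against −8.52 and −8.16, and Klk1b24 was higher by 1.67 ± 0.23. The smallest called difference after adjustment was that of Klk1b8, 1.00, which was lost without WT replicate 1 or without db/db + estrogen replicate 2 (0.78 in both). These genes were dim, and with the normexp background correction 1 of 12 was called. Without db/db + estrogen replicate 2, 5 were called, and without WT replicate 1, 5. The copies are alike in sequence and may share signal.

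The macrophage list held the most higher calls of the 38 lists by number, while the 8 of 12 Klk1 genes are a larger share. Of 26 tested, 15 were called higher and 1 lower, 11 and 0 after adjustment, with a median difference of 1.11. The shares over all probes were 2.53% higher and 10.9% lower. Vsig4, a complement receptor of resident macrophages, read −0.40 and 0.83 in db/db + estrogen and −3.72 and −3.86 in WT, higher by 4.0 ± 0.53 (limma adjusted p = 0.00171). C1qa, a chain of the first complement component, read 3.81 and 4.23 against 2.67 and 1.91, higher by 1.73 ± 0.27 (limma adjusted p = 0.00342). C1qb was higher by 1.67 and the scavenger receptor Msr1 by 1.20. Adgre1, a surface receptor used as a macrophage marker, read 3.20 and 3.26 against 2.05 and 1.39, higher by 1.51 ± 0.29 (limma adjusted p = 0.00891). In each of these genes both treated arrays lay above both WT arrays, as they or the reverse did for 54.0% of all probes. The scavenger receptors Cd163 and Marco and the sialic acid receptor Siglec1, chosen after their values were seen, were higher by 3.10, 3.27 and 2.16. Itgam, an integrin of macrophages and neutrophils, was the gene called lower, by 1.11, before adjustment only. The list's median was 0.66 in untreated db/db and 0.70 in db/db + vehicle, against the same WT arrays. Under the label day 7 the median of db/db + estrogen against WT was only 0.15. Without the dim WT replicate 2, 9 of the 26 were called higher and 3 after adjustment, and without db/db + estrogen replicate 2, 12 and 4.

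Genes of alternatively activated (M2) macrophages followed in part. Of 23 tested, 8 were called higher and 0 lower, 2 after adjustment, and the median was 0.60. Clec10a, a galactose-type lectin, read 5.74 and 6.10 in db/db + estrogen and 3.37 and 2.55 in WT, higher by 2.96 ± 0.37 (limma adjusted p = 0.00128). It stood between these in untreated db/db, at 4.57 and 4.41, and reached 5.45 and 5.93 with oil. Folr2, a folate receptor, read 3.33 and 3.53 against 1.72 and 0.91, higher by 2.12 ± 0.26 (limma adjusted p = 0.00104), and 1.83 and 1.69 in untreated db/db. Il4ra, the receptor chain for interleukins 4 and 13, was higher by 1.22 and the chemokine Ccl8 by 1.49, both before adjustment only. Ccl8 lost the call without WT replicate 2 (0.97) or db/db + estrogen replicate 2 (1.28), and Il4ra without db/db + estrogen replicate 1 (1.03). Arg1, the arginase of M2 cells, was higher by 1.31 and Cd209b, a C-type lectin, by 2.60, and neither passed the adjustment (limma adjusted p = 0.0981 and 0.117). Arg1 lost the call without db/db + estrogen replicate 1 (0.43) or WT replicate 2 (0.99), and Cd209b without WT replicate 2 (1.71) or db/db + estrogen replicate 2 (2.09). Retnla and Chil3, secreted proteins used as M2 markers, differed by −0.35 and −0.24, and the mannose receptor Mrc1 by 1.07, without a call. Without WT replicate 2, 3 of 23 were called higher and 2 lower. Il10, an anti-inflammatory cytokine, read −4.56 and −4.47 against −6.32 and −6.20, higher by 1.75 ± 0.19, but by 0.56 and without a call under the normexp correction.

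**Figure D3:**
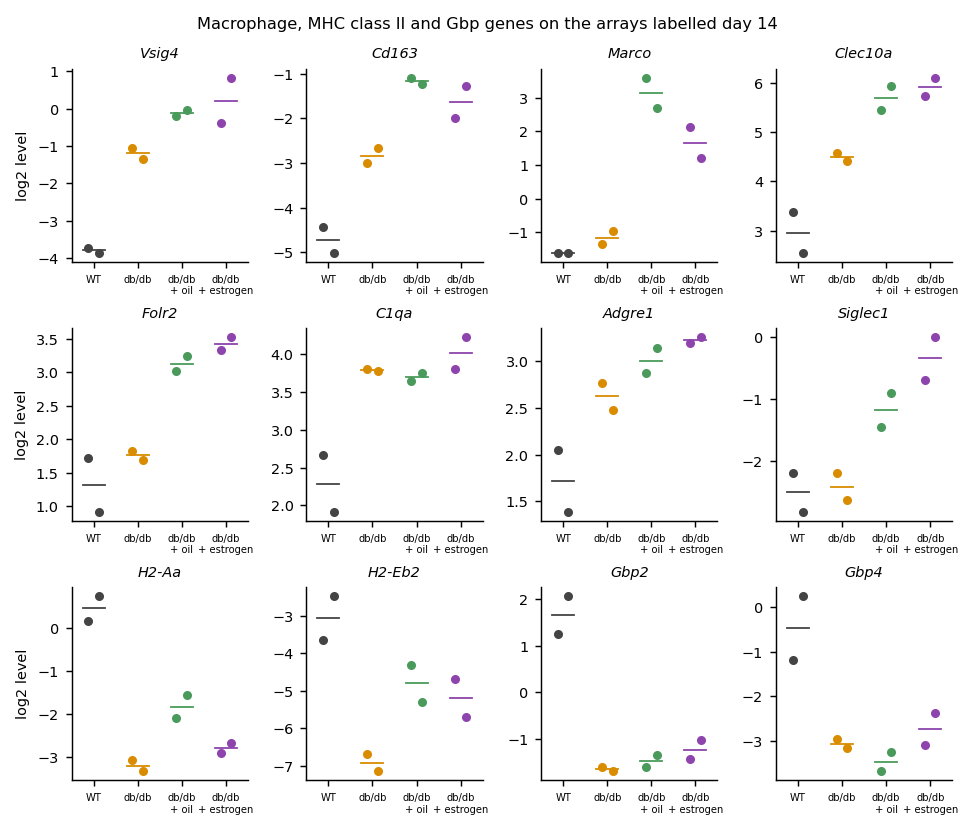
Levels (log2 relative to the 75th percentile, vertical axis) of 12 immune genes on the 8 arrays labelled day 14, by group (horizontal axis). Dots are single arrays and bars are group means. Vsig4, Clec10a, C1qa and Adgre1 are lowest in WT, while H2-Aa, Gbp2 and Gbp4 are highest in WT.

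A minority of the genes of antigen presentation were lower. Of 17 class II and Langerhans cell genes tested, 5 were called lower and 1 higher, 3 and 1 after adjustment, with a median of −0.80. Among all probes 10.9% were called lower and 2.53% higher. H2-Aa, a chain of the class II molecule, read −2.92 and −2.69 in db/db + estrogen and 0.17 and 0.76 in WT, lower by 3.27 ± 0.39 (limma adjusted p = 0.00103). H2-Eb2 and H2-Ob, further class II chains, were lower by 2.15 and 1.41. The class II invariant chain Cd74, chosen after its value was seen, differed by −0.85 without a call. The gene called higher, H2-Ea-ps, is a class II gene that C57BL/6 mice carry in a disrupted form, and it read −3.13 and −2.81 against −9.88 and −9.23, at least 21.1-fold higher. The class II locus differs between mouse strains, and strain and diabetes cannot be told apart here. Without db/db + estrogen replicate 2, or without WT replicate 2, 1 gene was lower after adjustment.

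The guanylate-binding proteins and related GTPases, which interferon gamma induces against intracellular microbes, were also lower in part. Of 18 tested, 6 were called lower and 1 higher, 4 and 1 after adjustment, with a median of −0.80, against 10.9% lower and 2.53% higher over all probes. In untreated db/db and db/db + vehicle the medians were −1.76 and −1.10 against the same WT arrays. Gbp2 read −1.43 and −1.02 in db/db + estrogen and 1.25 and 2.07 in WT, lower by 2.88 ± 0.36 (limma adjusted p = 0.00132). Gbp8 was at least 5.45-fold lower, and Gbp4 was lower by 2.29, or by 1.57 and no longer called without WT replicate 2. Gbp2b was the member called higher, at least 3.73-fold. Without WT replicate 2 the list held 2 genes called lower and without WT replicate 1 it held 11. Cxcl9, an interferon gamma-induced chemokine chosen after its value was seen, was lower by 2.49 before adjustment (limma adjusted p = 0.0858).

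Genes that type I interferon induces went the other way in a minority. Of 42 tested, 7 were called higher and 1 lower, against 2.53% and 10.9% of all probes. After adjustment 3 were called higher and 0 lower, and the median was 0.42. One of these was Xaf1, whose other probe had the opposite sign. The others were Oasl1, an oligoadenylate synthetase-like antiviral protein, higher by 1.32, and Rsad2, the antiviral enzyme viperin, by 1.64. Oasl1 and Rsad2 lost the call without db/db + estrogen replicate 2, at 0.96 and 0.90. Isg15 and Ifit1, further antiviral genes, differed by 0.39 and 0.95 without a call. The 2 treated arrays decided the count, since 1 gene was called higher without replicate 2, and 19 without replicate 1. Some granzymes, proteases of cytotoxic lymphocytes, were higher. Of 26 T cell genes 2 were called higher and 1 lower. Gzme read −1.25 and −1.42 against −5.65 and −6.28 in WT, higher by 4.63 ± 0.52 (limma adjusted p = 0.000756), with −0.96 and −0.54 in untreated db/db. Gzmn was at least 17.2-fold higher. The granzymes Gzma, Gzmb and Gzmc were not called, and Gzmd was too dim to be tested. Gzmb read −3.31 and −1.57 against −1.81 and −2.51, with overlapping groups. The other genes called were Gzmf (at least 5.78-fold higher) and the T cell coreceptor Cd8a (at least 1.59-fold lower), both before adjustment only. Gzmf lost the call without WT replicate 1 or db/db + estrogen replicate 2 (3.76 and 3.54), and Cd8a without WT replicate 2 or either treated array (−1.05 to −0.26).

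Clock genes differed in both directions. Of 18 tested, 2 were called higher and 5 lower, all after adjustment, against 2.53% and 10.9% of all probes before adjustment. Arntl (Bmal1), the activator at the core of the clock, read 0.16 and 0.16 in db/db + estrogen and −0.78 and −1.60 in WT, higher by 1.35 ± 0.24 (limma adjusted p = 0.00727). Nfil3, a repressor that binds D-box elements, read 2.46 and 2.48 against 1.38 and 1.08, higher by 1.24 ± 0.21. Per3, a period gene of the repressor arm, read −6.36 and −6.11 against −4.39 and −3.95, lower by 2.07 ± 0.34 (limma adjusted p = 0.00458). Tef, an activator that binds the same D-box elements, read 2.50 and 3.20 against 3.80 and 4.44, lower by 1.27 ± 0.27. The related activators Dbp and Hlf and the clock repressor Ciart completed the 5, lower by 1.46, 1.64 and 1.05, and were named after their values were seen. The treated and WT arrays did not overlap for any of the 7, nor for 54.0% of all probes. The median of the list was −0.28. The hour at which wounds were taken is not given in the sources used here. Without WT replicate 2, 1 gene was called higher and 3 lower, 0 after adjustment, and Arntl and Tef lost the call at 0.94 and −0.95. Tef also lost it without db/db + estrogen replicate 1, at −0.93.

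Per3 and Ciart are shown with their promoters as genes called lower whose promoters hold D-box or E-box letters, which not all such genes do. Of the 18 clock genes, 15 were in the RefSeq promoter table (GRCm38.p6, 250 bases before to 50 after the start). TTATGTAA, a D-box, was found on either strand in 1 of 15, Per3, and in 0.938% of all promoters. CACGTG, the E-box to which Arntl binds with its partner, was found in 5 of 15 and in 7.15% of all promoters. The 5 include Bhlhe41, Cry1 and Per1, which were not called, while Dbp and Hlf, called lower, held neither motif. The 2 motifs share no overlapping match in these promoters. Capitals mark the 2 D-boxes of Per3 (chr4:151044616-151044915, minus strand) and the 3 E-boxes of Ciart (chr3:95882179-95882478, minus strand).
Per3: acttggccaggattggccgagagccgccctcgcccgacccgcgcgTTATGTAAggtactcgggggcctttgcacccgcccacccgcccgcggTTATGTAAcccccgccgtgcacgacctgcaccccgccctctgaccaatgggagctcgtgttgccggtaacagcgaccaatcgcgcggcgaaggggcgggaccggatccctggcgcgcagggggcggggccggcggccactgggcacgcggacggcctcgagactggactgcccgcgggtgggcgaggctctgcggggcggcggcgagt
Ciart: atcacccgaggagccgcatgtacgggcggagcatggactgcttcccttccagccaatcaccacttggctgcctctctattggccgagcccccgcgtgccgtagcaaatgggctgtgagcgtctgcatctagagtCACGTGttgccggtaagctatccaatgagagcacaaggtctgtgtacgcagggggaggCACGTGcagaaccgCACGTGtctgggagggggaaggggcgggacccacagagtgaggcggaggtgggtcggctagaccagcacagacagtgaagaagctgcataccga

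Few matrix genes were called. Of 35 collagen and matrix genes tested, 3 were called higher and 3 lower, 2 and 1 after adjustment, with a median of −0.16. Beside this and the lists that follow, 2.53% of all probes were called higher and 10.9% lower. Spp1, the secreted phosphoprotein osteopontin, read 4.36 and 4.02 in db/db + estrogen and 1.83 and 1.42 in WT, higher by 2.57 (limma adjusted p = 0.00921). Col7a1, the anchoring fibril collagen under the epidermis, read 3.83 and 3.02 against 4.69 and 6.16, lower by 2.0, and lost the call without WT replicate 2 (−1.27) or db/db + estrogen replicate 2 (−1.59). Col5a3, a minor fibrillar collagen, was higher by 1.06, and lost the call without db/db + estrogen replicate 1 (0.90). The main dermal collagens Col1a1 and Col3a1 differed by −0.54 and −0.39 without a call, and periostin, Postn, by −1.25 before adjustment only, with the call lost without WT replicate 2 (−1.02) or either treated array (−1.21 and −1.30). Of 28 metalloproteinases and inhibitors, Mmp19 was higher by 1.61 and Mmp11 lower by 1.89, and no other was called, while 4 were higher without db/db + estrogen replicate 2 and 5 without WT replicate 1. Mmp11, stromelysin 3, read 1.19 and 1.68 against 3.04 and 3.62, and 2.72 and 3.0 in untreated db/db, so that its low level went with estrogen and oil (1.31 and 1.28). Of 17 myofibroblast genes, 2 were called higher, the receptors Tgfbr2 (1.26) and Pdgfra (1.03), and 4 lower, of which 0 after adjustment. Without db/db + estrogen replicate 1, 0 were lower, and without replicate 2, 8, and Pdgfra lost the call without WT replicate 2 (0.86). Acta2, the smooth muscle actin of myofibroblasts, differed by −0.82 without a call.

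Fat cell and lipid genes were split as well. Of 22 tested, 3 were called higher and 4 lower, 2 and 2 after adjustment, with a median of −0.17, or 2 lower and a median of 0.19 without db/db + estrogen replicate 1. The shares over all probes were 2.53% higher and 10.9% lower. Cd36, a fatty acid transporter of fat cells, vessels and macrophages, read 2.64 and 2.99 against 0.85 and 0.53, higher by 2.13 ± 0.23 (limma adjusted p = 0.000651). Lpl, lipoprotein lipase, read 4.32 and 4.49 against 2.38 and 2.04, higher by 2.20 ± 0.32. Cfd, the fat cell protease adipsin, was lower by 3.71, with 0.96 and 3.25 against 5.98 and 5.66, and Adrb3, the adrenergic receptor of fat cells, lower by 2.86. Adipoq, adiponectin, differed by −1.15 ± 0.80 without a call. Lep, leptin, read −1.33 and −2.80 against −3.35 and −4.73, higher by 1.97 with a limma adjusted p of 0.157, and was not called without WT replicate 2 (1.28) or db/db + estrogen replicate 1 (1.23). Lepr, its receptor, differed by −0.35 on the probe used, and 2 other probes of the gene were called lower. Among insulin and growth factor signaling genes, 1 of 20 was higher and 1 lower. Igfbp6, which binds insulin-like growth factor 2, was higher by 2.14, with 5.77 and 6.35 against 3.97 and 3.87, and Igfbp2, a further binding protein, lower by 2.47, with −1.81 and −1.86 against 0.15 and 1.13.

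Some nerve, pigment and hair follicle genes were lower, as were 10.9% of all probes. Besides Ngfr, 3 of 13 neurotrophin genes were called, all lower: Gdnf by 1.23, Artn by 1.41 and the receptor Ntrk3 by 1.55. Gdnf, a neurotrophic factor, read −2.44 and −2.39 in db/db + estrogen and −1.13 and −1.24 in WT (limma adjusted p = 0.00483). Artn lost the call without db/db + estrogen replicate 2 (−0.95) and Ntrk3 without replicate 1 (−0.85). Of 12 Schwann cell genes 3 were lower, Sox10 by 1.65, Cdh19 by 1.53 and Gfap at least 1.55-fold. Of 12 pigment cell genes 3 were lower, Sox10, Trpm1 (1.99) and Slc45a2 (at least 2.10-fold), with a median of −1.34, or −1.10 with a gene measured in WT only set at its bound, and without WT replicate 2 the list held 7 lower. Of 26 hair follicle genes, 5 were lower and 1 higher, 2 and 0 after adjustment. Without db/db + estrogen replicate 2, 2 hair genes were lower. Trpm1 lost the call without WT replicate 2 (−0.92), Slc45a2 without WT replicate 1 (−1.38) or db/db + estrogen replicate 2 (−1.17), and Cdh19 without either WT array or without db/db + estrogen replicate 1 (−1.68 to −0.95). Hoxc13, a transcription factor of hair keratin genes, read −3.92 and −4.57 against −1.76 and −2.33, lower by 2.19 ± 0.36 (limma adjusted p = 0.00449). Krt25, a keratin of the inner root sheath, differed by 0.10. Epgn, the only one of 16 epidermal growth factor ligands and related genes to be called, was lower by 2.31, and lost the call without WT replicate 1 (−1.75) or db/db + estrogen replicate 2 (−1.54), while 4 of the list were lower without replicate 1 and 3 without WT replicate 2. Xist, the noncoding RNA of the inactive X chromosome, read −2.09 and −2.43 against −0.91 and −0.52 in these females, lower by 1.54 ± 0.27, and −2.47 to −2.26 in the other db/db arrays.

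Many wound genes were not called. The 4 wound keratins Krt6a, Krt6b, Krt16 and Krt17, which migrating keratinocytes make, differed by −0.23, −0.02, −0.41 and −0.48. Krt6b read 7.81 and 7.14 in db/db + estrogen and 7.60 and 7.40 in WT, with overlapping groups. Of 39 genes of the granular layer and the skin barrier, 0 were higher and 2 lower, the protease Klk14 (−2.38) and the lipoxygenase Aloxe3 (−1.18), neither after adjustment, and Lor and Flg2, proteins of the cornified layer, differed by 0.44 and −0.07. Of 13 basal epidermis genes only the desmosomal cadherin Dsc3 was called, lower by 1.30. The small proline-rich and Lce3 genes, which injured epidermis makes, had 2 of 18 called higher, Sprr2b (1.88) and Sprr2e (1.63), both lost without WT replicate 2 (1.16 and 1.02) or db/db + estrogen replicate 1 (1.03 and 0.89). Of 27 neutrophil genes 2 were higher and 1 lower, 0 after adjustment, and S100a8, a calcium-binding protein of neutrophils and keratinocytes, differed by −0.32. Without db/db + estrogen replicate 1 the neutrophil list held 0 higher and 3 lower, and without replicate 2 it held 5 and 0. Of 32 inflammatory genes 3 were higher, Il10, Ccl2 (1.04) and Ccl12 (1.06), and the cytokine Il1b differed by −1.34 ± 1.0. Ccl2 and Ccl12 lost the call without WT replicate 2 (0.53 and 0.57) or db/db + estrogen replicate 2 (1.02 and 0.85), and Ccl2 also without replicate 1 (1.07). The inflammatory list held 3 lower without db/db + estrogen replicate 1 and 3 without WT replicate 2. One vessel gene of 27 was called, the lymphatic Lyve1 (1.48, with the call lost without either WT array or without db/db + estrogen replicate 2), and the endothelial marker Pecam1 differed by −0.40. Without WT replicate 1, 3 vessel genes were lower, and without db/db + estrogen replicate 2, 2. Of 29 cell cycle genes 0 were called, with Mki67 at −0.12, and of 14 immediate early genes 0, or 2 higher without db/db + estrogen replicate 1 and 3 without WT replicate 1. A p that misses the threshold does not show equal levels, and with 2 arrays a group a difference of 2-fold was often within the spread.

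Muscle genes show that limit. Of 12 slow muscle genes 0 were called although their median was 1.39, as 1 array stood apart. Myh7, a slow myosin, read −4.37 and 5.84 in db/db + estrogen and −4.73 and −3.76 in WT. The slow muscle list held 7 higher without db/db + estrogen replicate 1, and its median was −0.50 without replicate 2. Of 20 fast muscle genes 0 were called, with a median of −0.63. Of these, 18 were called lower without db/db + estrogen replicate 2, with a median of −2.40, and without replicate 1 the median was 1.29, so that count and sign rested on the treated array kept. Of 9 red cell genes 0 were called. Among the remaining lists, 1 of 11 B cell genes was higher, Tnfrsf17 (2.07), a plasma cell receptor, 1 of 28 sebaceous and lipid synthesis genes, Soat1 (1.01), and 1 of 30 glucose and hypoxia genes, Adm (1.88), the vasodilator adrenomedullin. Each of these 3 was called before adjustment only and lost the call without WT replicate 2. The glucose and hypoxia list held 7 higher without db/db + estrogen replicate 2 and 5 without WT replicate 1.

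**Figure D4:**
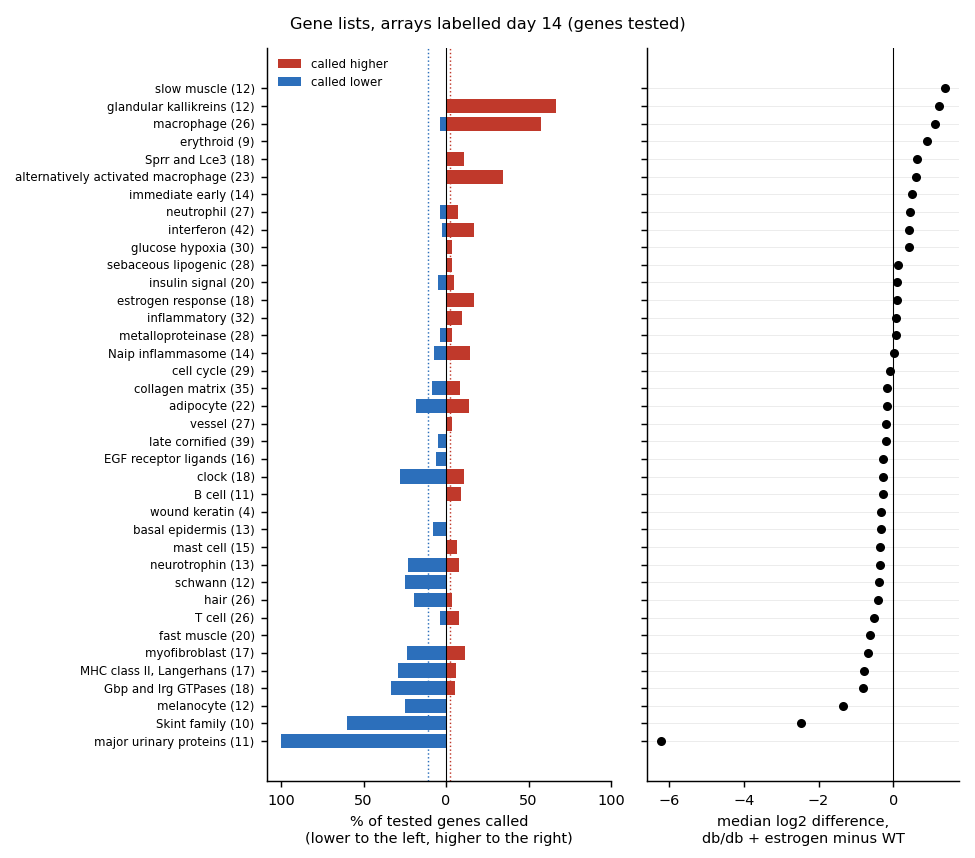
Percentage of the tested genes of each list called higher (right) or lower (left) in db/db + estrogen than in WT, with the genes tested in brackets, and, in the second panel, the median log2 difference of each list. Dotted lines are the percentages over all probes, named or not, 2.53 for higher and 10.9 for lower. The Mup and Skint lists reach furthest on the lower side and the Klk1 and macrophage lists furthest on the higher side.

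The arrays labelled day 7, which are other arrays of other mice, gave the same comparison at the other time. There, 8.28% of probes were called between db/db + estrogen and WT, 3.98% after adjustment. Of the 2697 probes called after adjustment on the label day 14, 2547 were tested under the label day 7. Of these, 696 (27.3%) were called in the same direction, against 4.42% of the other 26582 probes, and 90.5% had the same sign, against 68.2%. Pgr differed by 7.32, Greb1 by 5.02, Ptpn5 by 3.97 and Klk1b11 by 6.64 under the label day 7, Mcpt2 by 8.46 and Mup20 by −4.14. Under that label too, Pgr was high with oil (mean −3.93) and higher with estrogen (−1.25), against −9.37 in untreated db/db.

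The difference from WT changed with the label for few probes. The interaction was called for 58 of 30916 probes after adjustment (0.188%), 26 higher and 32 lower, and for 3741 (12.1%) at an unadjusted p below 0.05. Sprr2b, a small proline-rich protein of injured epidermis, differed from WT by 1.88 under the label day 14 and by −7.20 under the label day 7. In db/db + estrogen it read −0.23 and −1.92 under the label day 14 and −9.27 and −8.92 under the label day 7, while WT read −2.24 and −3.67, and −1.79 and −2.0. Krt6b behaved alike, at −0.02 and −5.62, and S100a8, a neutrophil and keratinocyte calcium-binding protein, at −0.32 and −4.75. Gzme and Gzmn were higher than WT under the label day 14 only, with −1.91 and −0.27 under the label day 7. Per3 was lower by 2.07 under one label and higher by 0.97 under the other. Arntl (1.35 and −0.65) and Tef (−1.27 and 0.76) also changed sign without a called interaction. Lgr5, a stem cell gene of the hair follicle chosen after its values were seen, differed by −3.50 and −0.14, an interaction of −3.37. Without the dim WT replicate 2 of the label day 14 the interaction was called for 1 probe, and without WT replicate 1 for 561, so the number of such probes was set by single arrays.

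**Figure D5:**
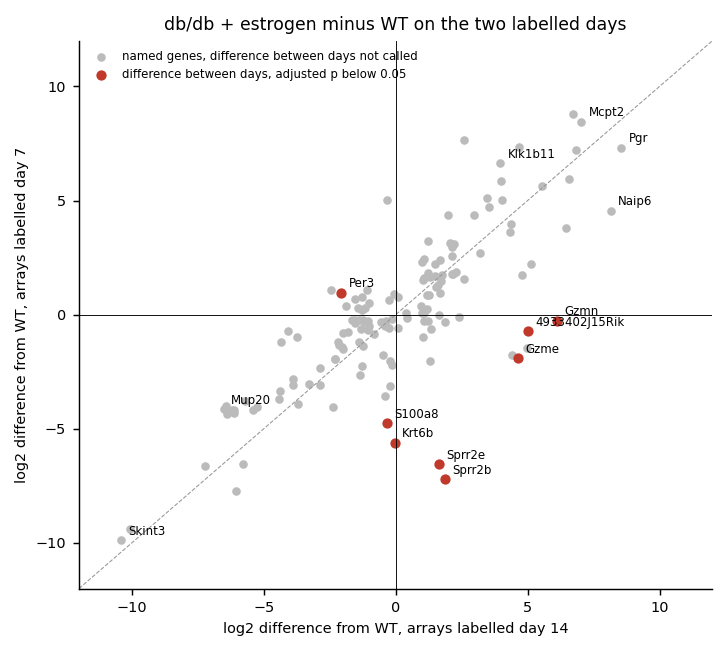
Difference between db/db + estrogen and WT (log2) under the label day 14 (horizontal axis) and the label day 7 (vertical axis) for the named genes. Red points have an interaction called after adjustment, such as Sprr2b (1.88 and −7.20) and Gzme (4.63 and −1.91). Genes near the diagonal, such as Pgr and Mcpt2, differed alike under both labels.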

How the data were processed

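RNA from homogenates of bisected wounds was measured on 16 1-colour Agilent 4x44K arrays, 2 in each of 4 groups on 2 labelled days. The spot intensity values used here are the processed signals that the authors deposited, background-subtracted by Agilent Feature Extraction 11.0.1.1 per the file headers. The value table the authors deposited, made with GeneSpring and 3 filters that are not named, holds a ratio for 34643 probes, each signal over the 75th percentile of its array, and at least 99.4% of its values on every array lay within 0.1% of that computed from the scanner files. Control spots and flagged outlier spots were left out, spots of a probe were averaged, and log2 of the signal minus the log2 75th percentile of the array was taken. No spot was saturated. Of 39429 probes, 27433 (69.6%) were named, 27427 through RefSeq accessions and 6 through accessions in the paper. The rest have no name here. One probe a gene was used, that of the highest mean over 16 arrays. A probe entered the test when both arrays of 1 of the compared groups, or of both, were flagged well above background. Testing used limma 3.58.1 (R 4.3.3) in a model of 8 group means, with 8 residual degrees of freedom and Benjamini-Hochberg adjustment. The model was tested on simulated data. Array number, 2 a group, limits the precision.

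Genes named in the text were the 12 of largest difference in each direction, the 8 of largest bound in each direction, up to 4 called members of smallest p from each list, and fixed genes of the tissue and treatment. Members and lists were chosen with earlier results of these data known. Alternatives were the normexp correction (offset 50), quantile normalization, other filters on dim probes, the deposited table, smaller fits, slide as a block (statmod 1.5.0), a replicate block, and leaving out each array in turn. Lists without each array and the day 7 arrays in the interaction were added after the data were seen. Sequences came from RefSeq promoters.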

Additional observations from a re-analysis of the deposited data

Results flagged for a closer look

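For 8 of the named genes the difference between db/db + estrogen and WT differed between the labelled days by limma's interaction term after adjustment. The change of the log2 difference from the label day 7 to the label day 14 was 6.54 for Gzme, 6.37 for Gzmn and 5.76 for 4933402J15Rik. It was 9.08 for Sprr2b, 8.18 for Sprr2e, 5.59 for Krt6b and 4.43 for S100a8. It was −3.03 for Per3. The labelled days were also scanned on separate days, and day, scan and label cannot be told apart.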

How the results depend on the processing

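With 2 arrays a group, limits are set by single arrays, above all by the dim WT replicate 2. For 148 values of named genes the alternative runs were compared by call, and 28 could not be given with all 4 arrays well above background. The sign of an uncalled value could turn when 1 array was left out. Myh7 read −4.37 on db/db + estrogen replicate 1 and 5.84 on replicate 2, against −4.73 and −3.76 in WT. The call was lost for 27 without WT replicate 2, 22 without db/db + estrogen replicate 2, 17 without replicate 1, 10 without WT replicate 1, 22 under the normexp correction, 16 in the fit of 4 arrays and 15 when slide was a fixed block. When 1 array was dropped, 2808 to 6045 probes were called, 924 to 4502 after adjustment, and 18.4% to 24.9% of calls were higher. The interaction was called for 1 to 561 probes when 1 of the 8 arrays was left out. The normexp correction gave 2067 calls, 1399 after adjustment and 4 interactions, and the cause was not tested. With no fold limit 9121 probes had an unadjusted p below 0.05. Quantile normalization gave 35.6% of calls higher. The fit of the 4 arrays gave 78 adjusted calls. Interactions numbered 32 with no filter on dim probes, 12 with all 4 arrays well above background, and 1 with slide as a fixed block. With the replicate block, 3995 probes were called, 2227 after adjustment, and 13 interactions; it ended the call of Lep and of no other named gene. Deviations of same-numbered arrays correlated by 0.24 under the label day 14 and −0.02 under the label day 7, and with 2 pairs a day the numbers were not taken as pairs. Of the dim Klk1 genes, 8 of 12 were called on the processed signal and 1 of 12 under the normexp correction.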

Other observations

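A group of bright probes, noticed after the values were seen, was lower in db/db + estrogen and stood highest on WT replicate 2. Of 48 probes lower after adjustment with a mean level above 3.5, 34 stood 1.79 to 2.14 higher on WT replicate 2 than on WT replicate 1, and their differences between the groups lay between −2.17 and −1.74. Of these 34, 6 had a gene symbol.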
